A study of Mus musculus with 6 samples.

Results

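The potassium channel genes were taken as the protein-coding mouse genes whose symbol is Kcn followed by subfamily letters and a number, without Kcnj10 and Kcnj13. The annotation held 90 such symbols, and 89 of them had an identifier among the 37620 of the count tables, in 20 subfamilies (Kcnj11 is not analysed here). RNA was sequenced from the hippocampus of C57BL/6 mice at 13 weeks of age, with 3 wildtype animals and 3 whose label names a knockout of the miR-17-92 cluster. Each mouse came from another litter. The labels do not say which bases of the cluster were removed, in which cells, or whether both alleles were affected. The comparison made was knockout against wildtype. Its p-values weigh the difference between genotypes against the spread among the 3 animals of each genotype, estimated with information from all genes.

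Potassium channels let potassium ions leave or enter the cell and so set the resting potential, the shape of the action potential and the firing rate of neurons. A pore is built from subunits of 1 family, and its opening depends on the family: voltage-gated channels open on depolarisation, calcium- and sodium-activated ones on a rise of those ions, inward rectifiers pass current best near rest, and tandem-pore channels carry a steady leak. Auxiliary subunits form no pore and change how many channels reach the membrane and how they gate. In the hippocampus these families shape excitability of pyramidal and granule cells, and astrocytes use some of them to take up potassium. The miR-17-92 cluster is a set of microRNAs cut from 1 transcript, which pair through their seed with sites in 3' UTRs of messenger RNAs and lower them.

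Reads assigned to genes came to between 26439693 and 57246827 per library. The host transcript of the cluster, Mir17hg (chromosome 14), held 43, 47 and 36 reads in wildtype replicates 1 to 3 and 30, 35 and 37 in knockout replicates 1 to 3. Its log2 fold was -0.22 with a SE of 0.28, adjusted p = 0.813 in edgeR's quasi-likelihood test. The genotypes overlapped in it, and since the removed part is not stated and mature microRNAs were not measured, these reads do not check the labels. Markers of neurons summed to 4437 to 4696 CPM in wildtype and 4695 to 4862 CPM in knockout. Of these 5 markers 3 had a positive fold, with 1 at an unadjusted p under 0.05 in edgeR in each direction (Stmn2 higher, Tubb3 lower). Markers of dentate granule cells summed to 517 to 543 and 611 to 645 CPM. Of these 5 markers 4 had a positive fold, and 2 of them such a p (Calb1 and Pter), while C1ql2 had a negative fold. No listed marker of either was at 0. In bulk tissue fewer cells of a type and less RNA per cell cannot be told apart.

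Of the 89 genes, 75 had enough reads to be tested and 14 did not, namely Kcna7, Kcna10, Kcne1, Kcne2, Kcnh8, Kcnj1, Kcnj15, Kcnk7, Kcnk15, Kcnk16, Kcnk18, Kcnmb3, Kcnn4 and Kcnv2. Kcnj1 and Kcnk16 had 0 reads in all 6 libraries, and a count of 0 allows up to 3 reads in a library. Kcne2, a single-span subunit abundant in choroid plexus, held 27, 6 and 5 reads in wildtype and 1, 7 and 38 in knockout. Its high libraries were wildtype replicate 1 and knockout replicate 3, 1 of each genotype. Markers of choroid plexus summed to 65.0 CPM in wildtype replicate 1 and to between 24.9 and 38.2 CPM in the other 5 libraries. Of these markers Kl lay between 21.6 and 32.8 CPM in all 6 libraries. Ttr stood at 39.0 CPM in wildtype replicate 1 and 5.73 CPM in knockout replicate 3, with the others between 1.56 and 4.87 CPM. So the high marker sum beside the first of these Kcne2 values came from Ttr. The part of choroid plexus in the Kcne2 values was not tested.

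Between genes, levels were compared as CPM (reads scaled to library size, with trimmed-mean factors) per kb of exon. The highest level per length over the 6 libraries was that of Kcnab2, at 123, followed by Kcnip2 at 71.2, both of them auxiliary subunits. The voltage-gated pore gene Kcna1 had a level per length of 54.7. Kcnd2 at 33.8, Kcnk1 at 33.5 and Kcnj3 at 32.1 lay close together in level per length, below Kcna1. At the low end of the tested genes stood Kcnj5 at a level per length of 0.107 and Kcnk5 at 0.136 (both picked after their values were seen). Summed over all 89 genes the level per length was 874 in wildtype and 867 in knockout.

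**Figure D1:**
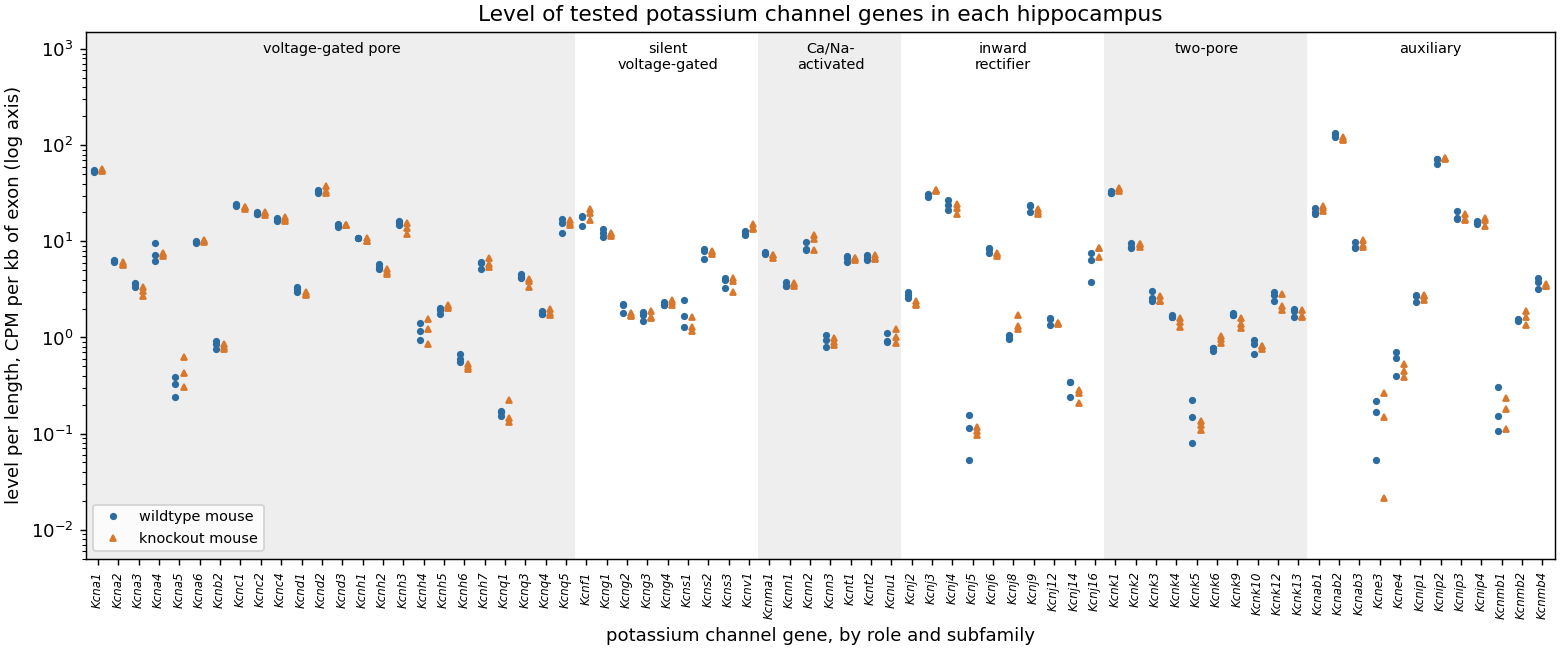
Level of 72 tested genes in each mouse, in CPM per kb of exon on a log axis, with genes ordered by role and subfamily (circles wildtype mice, triangles knockout mice). For most genes the 6 points lie close together compared with the distance between genes, from about 0.107 (Kcnj5) to 123 (Kcnab2).

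No potassium channel gene passed an adjusted p of 0.05 between the genotypes: 0 of 75 in edgeR, beside 0.0% of the 16432 genes tested. DESeq2 called 0 of the 75, beside 0.992% of all genes, and limma-voom called 0 of the 75, beside 0.0%. At an unadjusted p under 0.05 edgeR had 14 of the 75 (18.7%), beside 10.6% of all genes, DESeq2 had 12, beside 8.33%, and limma-voom 17, beside 10.8%. Among the 14 of edgeR, 4 had a positive log2 fold of knockout over wildtype (5.33% of the 75, beside 5.05% of all genes) and 10 a negative one (13.3%, beside 5.58%). With per-library offsets that model GC content and length this split was 6 positive and 5 negative. Over all genes it was then 607 positive and 567 negative (7.14% together). The balance among the channel genes thus moved with that setting.

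The size of the differences was small. The median log2 fold of the 75 genes was -0.030, with 33 positive and 42 negative, beside a median of 3.9e-05 over all genes. None of the 75 differed by a factor of 2 or more, and the 14 with a small p spanned 0.10 to 0.49 in absolute log2 fold. For 42 of the 75 the SD between mice of 1 genotype exceeded the difference between genotypes (both on the log2 scale). The median of that SD was 0.113 for the channel genes and 0.107 for all genes.

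In 18 of the 75 genes (24.0%) the 3 knockout values did not overlap with the 3 wildtype values, beside 16.6% of all genes. In 4 of them all knockout values were higher (5.33%, beside 8.29%) and in 14 all were lower (18.7%, beside 8.34%). With the offsets for GC content and length these were 15 genes, 8 higher and 7 lower. The share of all genes under these offsets is not given here, so this count has no background beside it. The 14 genes with an unadjusted p under 0.05 all belonged to the 18, and the other 4 were Kcna2, Kcna3, Kcnh6 and Kcnk4, each lower in knockout (3 of these, Kcna3, Kcnh6 and Kcnk4, are named after their values were seen).

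**Figure D2:**
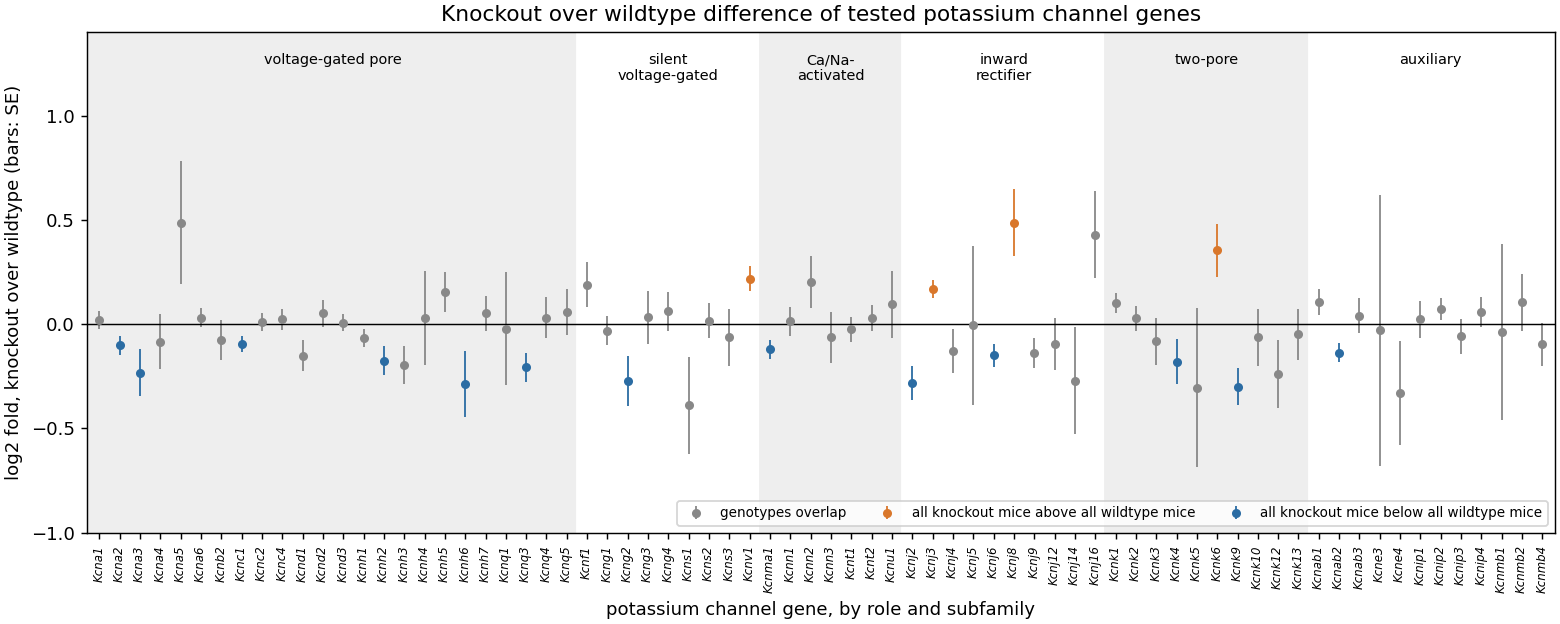
Log2 fold of knockout over wildtype for 72 tested genes, with bars of 1 SE, ordered by role; colour marks 4 genes whose knockout mice all lay above and 13 whose knockout mice all lay below the wildtype mice. The points scatter around 0 between -0.39 (Kcns1) and 0.49 (Kcnj8), with the widest bars on genes of low counts.

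The voltage-gated pore subunits (Kcna, Kcnb, Kcnc, Kcnd, Kcnh and Kcnq) were the largest group, with 27 of 30 tested. Of the 27, 12 had a positive and 15 a negative log2 fold with a median of -0.022, and none passed adjustment. An unadjusted p under 0.05 was reached by 0 in the positive and 4 in the negative direction, beside 5.05% and 5.58% of all genes. Among the 4 were Kcnq3, Kcnh2 and Kcnc1.

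Kcnq3 encodes a subunit of the M-channel, a slowly opening, muscarine-suppressed brake on repetitive firing. Kcnq3 measured 66.6, 61.5 and 62.7 CPM in wildtype and 59.2, 56.7 and 49.8 CPM in knockout. The groups did not overlap, and knockout replicate 3 was the lowest of the 6. Its log2 fold was -0.21 (SE 0.069, adjusted p = 0.358 in edgeR) and -0.14 without knockout replicate 3.

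Kcnh2, the ether-a-go-go related subunit also known from the repolarisation of the heart, measured 25.0, 28.5 and 26.0 CPM in wildtype and 23.5, 24.8 and 22.3 CPM in knockout. The lowest wildtype and the highest knockout mouse were nearly level. The log2 fold was -0.18 with a SE of 0.071 (adjusted p = 0.440 in edgeR), and -0.058 with the offsets for GC content and length. Kcnh3, of the related elk branch and found mostly in the forebrain, had a log2 fold of -0.20 with a SE of 0.090. Knockout replicate 1, at 89.0 CPM, lay within the wildtype values of 84.6 to 94.1 CPM and knockout replicate 3 was the lowest at 68.0 CPM, so that the fold was -0.098 without knockout replicate 3.

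Among the Kcnc subunits, Kcnc1 makes fast delayed rectifiers that let interneurons fire at high rates. Kcnc1 measured 229, 228 and 221 CPM in wildtype and 215, 205 and 216 CPM in knockout. The groups did not overlap, but the gap was narrow, and the log2 fold was -0.10 (SE 0.040, adjusted p = 0.452 in edgeR), or -0.0086 with the offsets for GC content and length.

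Kcna1 and Kcna2 encode the axonal low-threshold subunits. Kcna1 held 66.1% of the Kcna level per length in wildtype and 67.3% in knockout. It measured 266, 261 and 251 CPM in wildtype and 272, 262 and 256 CPM in knockout, an overlap throughout, with a log2 fold of 0.020 (SE 0.041). Kcna2 measured 76.6, 74.0 and 73.5 CPM in wildtype and 68.7, 72.3 and 68.1 CPM in knockout. All of its knockout values were lower, the log2 fold was -0.10 and the SE 0.045, with adjusted p = 0.471 in edgeR.

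Kcna5, a subunit of low level in this tissue, ranged from 0.690 to 1.10 CPM in wildtype and from 0.873 to 1.77 CPM in knockout. Its log2 fold of 0.49 (SE 0.29) rested on knockout replicate 1 and was 0.21 without it. In Kcna4, the rapidly inactivating member (named after its values were seen), wildtype replicate 3 stood apart at 46.5 CPM, with the other 5 libraries between 30.4 and 36.4 CPM.

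Kcnd2 and Kcnd1 encode subunits of the somatodendritic A-type current, which inactivates quickly and limits back-propagating action potentials. Kcnd2 measured 165, 172 and 175 CPM in wildtype and 173, 195 and 164 CPM in knockout, with a log2 fold of 0.051 (SE 0.064) that was -0.022 without knockout replicate 2. Kcnd1 measured 17.9, 15.8 and 17.0 CPM in wildtype and 15.9, 14.9 and 14.8 CPM in knockout, with a log2 fold of -0.15 (SE 0.075, adjusted p = 0.521 in edgeR). Only knockout replicate 1 overlapped with the wildtype mice.

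The silent subunits (Kcnf, Kcng, Kcns and Kcnv) form no channel of their own and join Kcnb subunits in mixed channels whose gating they change. Of 10 genes 9 were tested, 5 with a positive and 4 with a negative log2 fold and a median of 0.017, and none passed adjustment. An unadjusted p under 0.05 was reached by 1 gene in each direction, beside 10.6% of all genes in either direction.

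Kcnv1 was the one in the positive direction, with 58.2, 52.9 and 55.9 CPM in wildtype and 62.7, 69.6 and 62.3 CPM in knockout. Each knockout mouse lay above each wildtype mouse. Kcnv1 had a log2 fold of 0.22 with a SE of 0.059, adjusted p = 0.317 in edgeR. Kcng2 was the one in the negative direction, with 6.58, 6.72 and 5.33 CPM in wildtype and 5.32, 5.09 and 5.05 CPM in knockout. Wildtype replicate 3 and knockout replicate 1 were almost equal, so the separation of its genotypes was minimal. Its log2 fold was -0.27 (SE 0.12, adjusted p = 0.467 in edgeR) and -0.16 with the offsets for GC content and length.

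Among the other silent subunits Kcnf1 was the highest per length, at 18.2. It measured 70.0, 89.0 and 85.6 CPM in wildtype and 94.9, 104 and 80.6 CPM in knockout. The genotypes overlapped, and the log2 fold of 0.19 (SE 0.11) was 0.090 without wildtype replicate 1. Kcns1 had the most negative fold of all tested channel genes, -0.39 with a SE of 0.23, from 3.46, 6.58 and 4.55 CPM in wildtype and 3.17, 3.49 and 4.40 CPM in knockout. Wildtype replicate 2 was the high library, and without it the log2 fold was -0.10. Kcng1 and Kcns2 overlapped fully, with log2 folds of -0.032 and 0.017.

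The calcium- and sodium-activated group, taken by symbol as Kcnma, Kcnn, Kcnt and Kcnu, had 7 of 8 genes tested. Kcnu1 was placed here by symbol and not by what opens it, and its log2 fold of 0.095 is counted. Of the 7, 4 had a positive and 3 a negative log2 fold, with a median of 0.013. An unadjusted p under 0.05 was reached by 0 in the positive and 1 in the negative direction, Kcnma1, beside 5.05% and 5.58% of all genes. None of the 7 passed adjustment. Kcnma1 encodes the pore of the large-conductance channel that opens on calcium and depolarisation together and ends the action potential. It measured 133, 127 and 129 CPM in wildtype and 114, 122 and 121 CPM in knockout. The genotypes did not overlap, and knockout replicate 1 was the lowest. The log2 fold was -0.12 with a SE of 0.044 (adjusted p = 0.398 in edgeR) and -0.11 with the offsets for GC content and length.

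Kcnn2 encodes a small-conductance channel that carries an afterhyperpolarisation and is the highest of its subfamily per length. It measured 73.8, 61.7 and 60.4 CPM in wildtype and 60.8, 86.1 and 78.7 CPM in knockout. Knockout replicate 1 lay among the wildtype mice and wildtype replicate 1 near the knockout mice, and the log2 fold of 0.20 (SE 0.12) was 0.099 without knockout replicate 2. Kcnt2, a sodium-activated subunit, and Kcnu1, a subunit known from sperm, had log2 folds of 0.029 (SE 0.060) and 0.095 (SE 0.16), with overlapping genotypes.

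Inward rectifiers had 10 of 12 genes tested. An unadjusted p under 0.05 was reached by 4 of the 10, 2 in each direction, beside 10.6% of all genes. The median log2 fold was -0.11, with 3 positive and 7 negative, and none passed adjustment. The 4 were Kcnj3 and Kcnj8 with positive folds and Kcnj2 and Kcnj6 with negative ones.

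Kcnj3 had the smallest p of all the channel genes. It encodes a subunit of the G protein-gated inward rectifier, through which inhibitory receptors for GABA, adenosine and serotonin hyperpolarise neurons, and it reaches the membrane only together with a partner such as Kcnj6 or Kcnj9. It measured 150, 162 and 160 CPM in wildtype and 175, 179 and 177 CPM in knockout. All knockout mice lay above all wildtype mice and close to each other. Kcnj3 had a log2 fold of 0.17 with a SE of 0.043, adjusted p = 0.299 in edgeR. Of its exon length 31.1% is shared with the annotated gene Gm26794, and since the strand setting of the counting is not given, reads of the pair cannot be told apart.

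The partner Kcnj6 had a fold of the opposite sign. It measured 63.1, 58.4 and 65.2 CPM in wildtype and 54.0, 57.4 and 56.7 CPM in knockout. All knockout values lay below, the nearest being 57.4 and 58.4 CPM, and the log2 fold was -0.15 with a SE of 0.054 (adjusted p = 0.398 in edgeR). Kcnj9, the other partner in the forebrain (named after its values were seen), measured 86.2, 102 and 101 CPM in wildtype and 92.4, 87.1 and 83.1 CPM in knockout. Wildtype replicate 1 lay among the knockout mice in Kcnj9, and its log2 fold was -0.14 (SE 0.071). As shares of the summed level per length of the 12 Kcnj genes taken here, which leave out Kcnj10 and Kcnj13, Kcnj3 took 31.3% ± 0.29 in wildtype and 34.9% ± 1.3 in knockout, and Kcnj6 8.46% ± 0.70 and 7.56% ± 0.45 (SD, n = 3).

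Kcnj2 encodes a strong inward rectifier that holds the resting potential. It measured 14.1, 15.2 and 16.1 CPM in wildtype and 11.9, 12.2 and 13.1 CPM in knockout. The groups did not overlap, and the log2 fold was -0.28 with a SE of 0.083 (adjusted p = 0.330 in edgeR). With the offsets for GC content and length it was -0.33.

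Kcnj8 encodes the pore of an ATP-sensitive channel of pericytes and vascular smooth muscle. It measured 2.54, 2.67 and 2.48 CPM in wildtype and 3.11, 4.37 and 3.38 CPM in knockout. Every knockout mouse was above the wildtype mice, with replicate 2 the highest, and the log2 fold was 0.49 with a SE of 0.16 (adjusted p = 0.358 in edgeR). Of 4 markers of mural cells, the class that includes pericytes, 0 had a positive fold and 0 an unadjusted p under 0.05, and they summed to 169 to 190 CPM in wildtype and 165 to 185 CPM in knockout. Markers of meninges were positive in 5 of 5, with 4 at an unadjusted p under 0.05, and summed to 217 to 261 CPM and 280 to 398 CPM. No listed marker of either was at 0, and their part in the Kcnj8 difference was not tested.

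Kcnj16, an inward rectifier subunit of astrocytes and other glia, measured 29.8, 15.0 and 25.3 CPM in wildtype and 33.2, 27.2 and 33.4 CPM in knockout. Wildtype replicate 2 was the low library and wildtype replicate 1 lay among the knockout mice, so the genotypes overlapped. The log2 fold of 0.43 (SE 0.21, adjusted p = 0.517 in edgeR) was 0.19 without wildtype replicate 2 and 0.65 without wildtype replicate 1. Astrocyte markers had a positive fold in 6 of 6, with 4 at an unadjusted p under 0.05, and summed to 1461 to 1538 CPM in wildtype and 1664 to 1784 CPM in knockout. None of them was at 0, and their part in the Kcnj16 values was not tested.

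Tandem-pore leak channels had 10 of 14 genes tested, 3 with a positive and 7 with a negative log2 fold and a median of -0.073. An unadjusted p under 0.05 was reached by 1 gene in each direction, beside 10.6% of all genes in either direction. None of the 10 passed adjustment. Kcnk9, an acid-sensitive leak subunit of neurons, measured 21.1, 21.1 and 21.9 CPM in wildtype and 17.0, 15.4 and 19.4 CPM in knockout. The wildtype mice were close together and all knockout mice lay below them. The log2 fold was -0.30 with a SE of 0.087, adjusted p = 0.330 in edgeR.

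Kcnk6, a tandem-pore subunit of low level in this tissue, measured 2.97, 3.20 and 3.20 CPM in wildtype and 3.98, 3.61 and 4.33 CPM in knockout. Its genotypes did not overlap, and the log2 fold was 0.35 (SE 0.13, adjusted p = 0.398 in edgeR). Kcnk1, the most abundant tandem-pore subunit per length, measured 71.0, 70.7 and 74.8 CPM in wildtype and 78.7, 79.9 and 74.1 CPM in knockout. Wildtype replicate 3 and knockout replicate 3 overlapped, and the log2 fold was 0.10 (SE 0.048). It took 60.2% ± 0.58 of the Kcnk level per length in wildtype and 62.9% ± 0.96 in knockout, and Kcnk9 3.23% and 2.55% (SD, n = 3).

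Auxiliary subunits had 12 of 15 genes tested, 6 with a positive and 6 with a negative log2 fold and a median of -0.0033. An unadjusted p under 0.05 was reached by 0 in the positive and 1 in the negative direction, Kcnab2, beside 5.05% and 5.58% of all genes. None of the 12 passed adjustment. Kcnab2 encodes the cytoplasmic beta subunit that binds Kcna channels and carries them to the axon. It measured 738, 741 and 683 CPM in wildtype and 679, 654 and 633 CPM in knockout. Wildtype replicate 3 and knockout replicate 1 lay next to each other at 683 and 679 CPM. The log2 fold was -0.14 with a SE of 0.045 (adjusted p = 0.358 in edgeR), and -0.063 with the offsets for GC content and length.

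Kcnab1, a related beta subunit that adds rapid inactivation, measured 172, 164 and 190 CPM in wildtype and 191, 199 and 177 CPM in knockout, with a log2 fold of 0.11 (SE 0.063) and overlapping genotypes. Kcnip2, which binds calcium and the Kcnd pore, measured 249, 223 and 253 CPM in wildtype and 255, 252 and 254 CPM in knockout. The 3 knockout mice were close together and wildtype replicate 2 was low, so that the log2 fold of 0.073 was 0.018 without it. Kcnmb4, the beta subunit of Kcnma1 channels in the brain, had a log2 fold of -0.096 (SE 0.10), and -0.0074 without wildtype replicate 2, and 31.5% of its exon length is shared with annotated antisense genes. Kcne4, a single-span subunit, ranged from 1.07 to 1.90 CPM in wildtype and from 1.03 to 1.42 CPM in knockout, with a log2 fold of -0.33 (SE 0.25) and -0.14 without wildtype replicate 2.

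**Figure D3:**
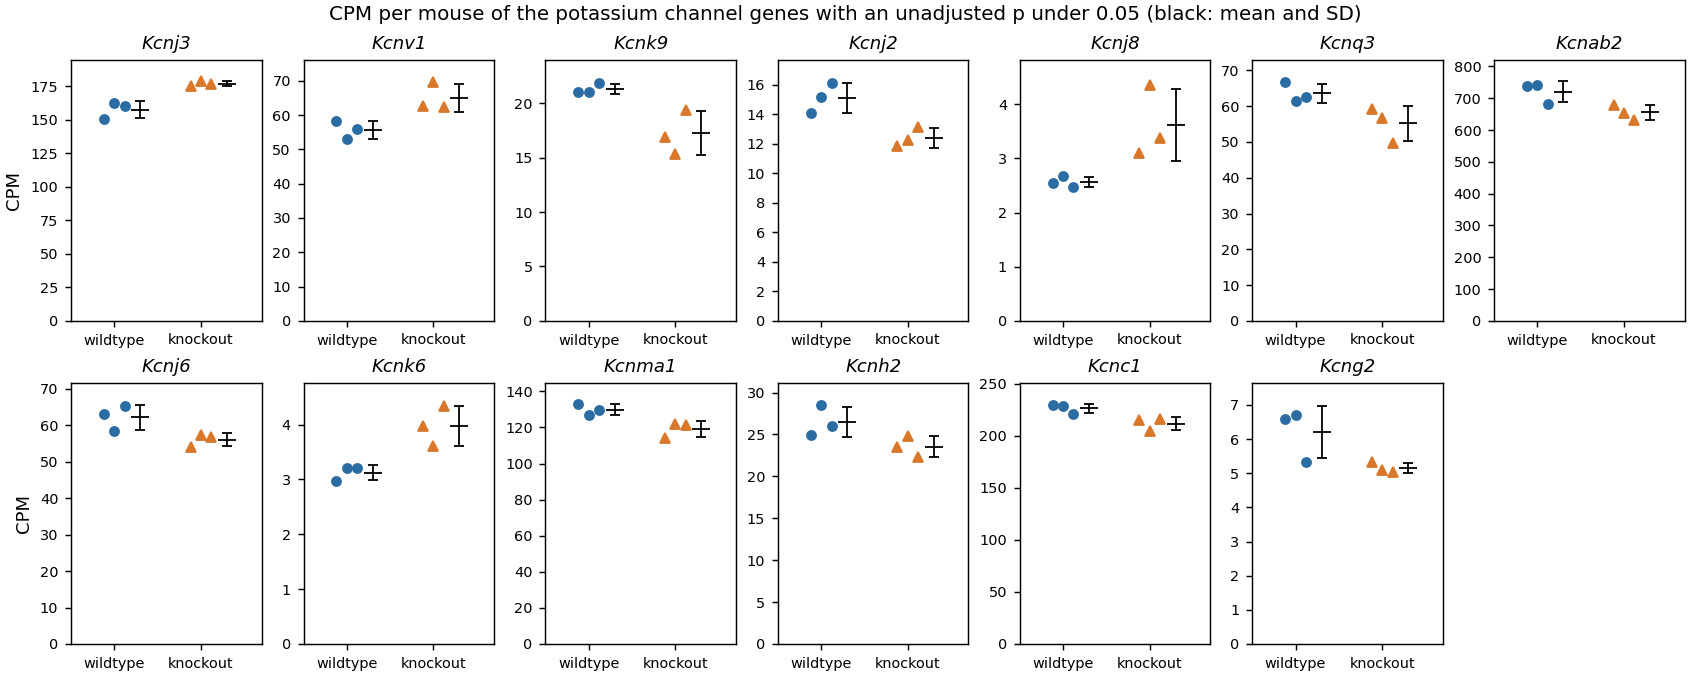
CPM in each mouse of 13 genes with an unadjusted p under 0.05, ordered by p, from Kcnj3 to Kcng2, on axes that start at 0 (circles wildtype, triangles knockout, black lines the mean with 1 SD). In each panel the 3 knockout points lie on 1 side of the 3 wildtype points, by a wide margin in Kcnk6 (at most 3.20 in wildtype and at least 3.61 in knockout) and by almost none in Kcng2.

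Over 17 other settings, 4 of the 14 genes with an unadjusted p under 0.05 stayed there in each, namely Kcnj3, Kcnv1, Kcnj2 and Kcnk9. Kcnj2 and Kcnk9 had negative folds, and Kcnj3 and Kcnv1 positive ones.

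Genes outside the symbol rule that belong to the same complexes were taken from a list of 20 (auxiliary subunits, the axonal Kcna complex, sulfonylurea receptors, and the related Hcn cation channels). Of these 19 were tested and Lrrc52 had 0 reads. An unadjusted p under 0.05 was reached by 4 of 19, 2 in each direction, beside 10.6% of all genes, and 0 passed adjustment in edgeR.

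Hcn2, a pacemaker channel that opens on hyperpolarisation, measured 83.1, 84.6 and 86.3 CPM in wildtype and 75.1, 74.8 and 77.3 CPM in knockout. The genotypes did not overlap, and the log2 fold was -0.16 (SE 0.041, adjusted p = 0.299 in edgeR). Abcc9, the sulfonylurea receptor that joins Kcnj8 in vascular ATP-sensitive channels, measured 8.62, 7.86 and 10.7 CPM in wildtype and 12.3, 12.8 and 11.5 CPM in knockout. Like Kcnj8 it was higher in every knockout mouse than in any wildtype mouse, with a log2 fold of 0.43 (SE 0.12, adjusted p = 0.326 in edgeR).

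Lgi1 is a secreted protein that acts on the axonal Kcna complex. It measured 153, 149 and 159 CPM in wildtype and 172, 167 and 161 CPM in knockout, with a log2 fold of 0.12 (SE 0.045, adjusted p = 0.418 in edgeR). Its genotypes were separated by a narrow gap, at 159 and 161 CPM. Cntn2, an adhesion protein of the juxtaparanode where Kcna channels cluster, measured 135, 158 and 150 CPM in wildtype and 134, 128 and 138 CPM in knockout. Knockout replicate 3 lay above wildtype replicate 1, so they overlapped, and the log2 fold was -0.15 (SE 0.062, adjusted p = 0.454 in edgeR).

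Base composition moved with the folds of the channel genes as it did with those of other genes. The median GC content of the longest transcript was 52.2% for the 75 genes and 49.8% for all genes, and the median exon length was 4.59 and 4.26 kb. The 38 channel genes at or above 52.2% GC had log2 folds with a median of -0.062, and the 37 below it one of 0.0092. All genes split at the same GC content had -0.058 and 0.032. A cause for this relation to GC content was not tested.

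With the offsets for GC content and length 11 channel genes had an unadjusted p under 0.05, beside 7.14% of all genes (607 positive and 567 negative). Of the 14, 9 were among these 11, 4 positive (Kcnj3, Kcnv1, Kcnj8 and Kcnk6) and 5 negative (Kcnk9, Kcnj2, Kcnq3, Kcnj6 and Kcnma1). The 5 that left all had negative folds, and among them Kcnab2, Kcnh2, Kcnc1 and Kcng2 had a GC content between 57.4% and 61.5%. The 2 that entered were Kcnk1 with a log2 fold of 0.12 and Kcnc4 with 0.11 (the latter named after its values were seen). The median log2 fold of the 75 became -0.0036.

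**Figure D4:**
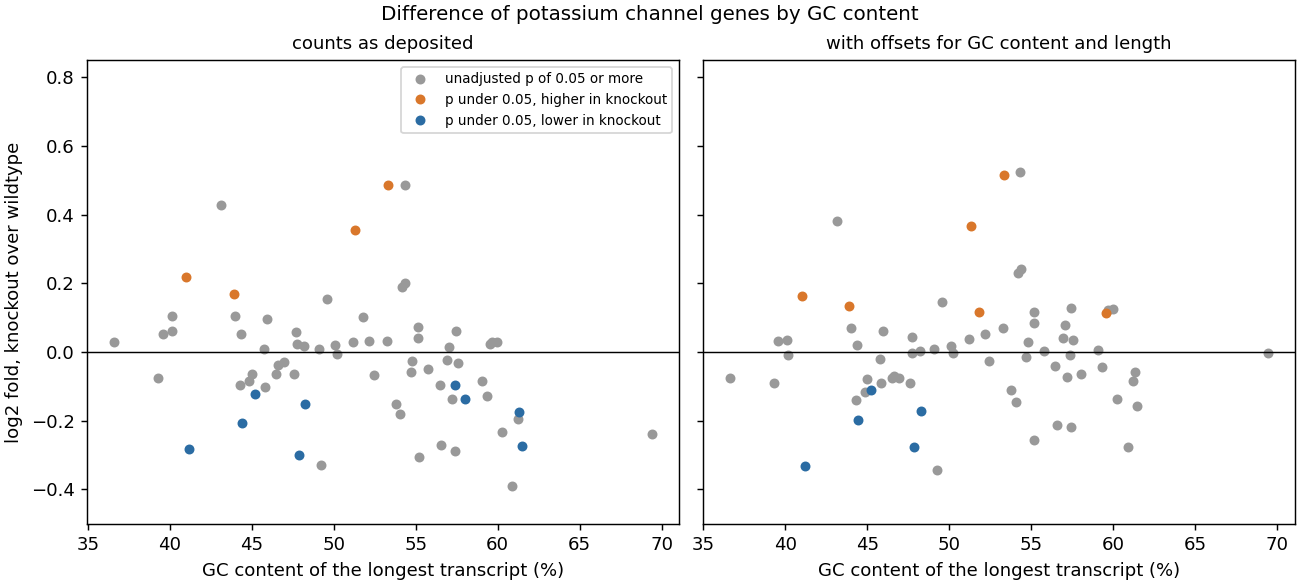
Log2 fold of knockout over wildtype of 72 tested genes against GC content of the longest transcript (%), from the counts as deposited (left) and with offsets for GC content and length (right); colour marks an unadjusted p under 0.05. On the left the negative coloured points extend to 61.5% GC, and on the right the 5 negative coloured points all lie below 50% GC.

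The mature microRNAs of the cluster have 4 seeds (bases 2 to 8, in capitals), given here because the site searches below use them; the sequences are those of RefSeq for GRCm38.p6, where they lie on the plus strand of chromosome 14 between positions 115043684 and 115044496. mmu-miR-17-5p and mmu-miR-20a-5p share a seed, as do mmu-miR-19a-3p and mmu-miR-19b-3p.
mmu-miR-17-5p: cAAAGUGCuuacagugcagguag
mmu-miR-20a-5p: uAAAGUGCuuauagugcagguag
mmu-miR-18a-5p: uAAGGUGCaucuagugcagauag
mmu-miR-19a-3p: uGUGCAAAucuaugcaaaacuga
mmu-miR-19b-3p: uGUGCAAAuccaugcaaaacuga
mmu-miR-92a-3p: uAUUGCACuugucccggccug

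Matches to these seeds, 7 bases each on the transcript strand, were searched in the longest annotated 3' UTR of each gene. They read GCACTTT for miR-17-5p and miR-20a-5p, GCACCTT for miR-18a-5p, TTTGCAC for miR-19a-3p and miR-19b-3p, and GTGCAAT for miR-92a-3p. A match is a description of the letters and not of a site of action, and related clusters elsewhere in the genome carry some of the same seeds. Of the 75 tested channel genes 29 (38.7%) held at least 1 match, beside 33.4% of 14512 genes. Their 3' UTRs were longer, with a median of 1821 bases beside 1192, and the density of matches was 0.300 per kb beside 0.303 per kb. By seed, 12 channel genes (16.0%, beside 14.4% of genes) held GCACTTT, 11 (14.7%, beside 9.29%) GCACCTT, 18 (24.0%, beside 13.1%) TTTGCAC and 8 (10.7%, beside 7.59%) GTGCAAT.

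Median log2 folds were -0.025 among the 29 channel genes that held a match and -0.034 among the 46 that held none. Over the 4841 tested genes of any kind that held a match the median was 0.012. Of the 29, 12 had a positive and 17 a negative fold, and of the 46, 21 and 25. Among the 29, an unadjusted p under 0.05 was reached by 0 in the positive and 5 in the negative direction, and among the 46 by 4 and 5. Of all genes tested, with or without a match, 5.05% and 5.58% reached it. The difference between the sets with and without a match was not tested. Among the 5 that held a match were Kcnk9, Kcnj2, Kcnq3 and Kcnma1.

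Kcnk9 held the most matches, 7 in a 3' UTR of 11030 bases, followed by Kcnh7 and Kcnk10 with 5 each (both named after their values were seen), whose log2 folds were 0.052 and -0.063. The windows below show matches to the miR-17 and miR-19 seeds in 3' UTRs of Kcnk9, Kcnq3, Kcnma1 and Kcnj2, except the pair for miR-19 in Kcnk9. These genes are shown because they have both a match and an unadjusted p under 0.05 in edgeR. Each had a negative fold, that is, a lower level in knockout. No tested member with a match reached such a p with a positive fold. Each window is 30 bases from GRCm38, in transcript direction, with the match in capitals. Kcnk9 (minus strand of chromosome 15) holds 3 matches to the seed of miR-17-5p and miR-20a-5p, at chr15:72511454-72511483, chr15:72511329-72511358 and chr15:72501907-72501936. Kcnq3 (minus strand, chr15:65992877-65992906) and Kcnma1 (minus strand, chr14:23296856-23296885) hold 1 each, in 3' UTRs of 8784 and 7730 bases. Kcnj2 (plus strand) holds 2 matches to the seed of miR-19a-3p and miR-19b-3p, at chr11:111073917-111073946 and chr11:111074033-111074062.
Kcnk9 first: agcacatcccacaaaGCACTTTtaacccaa
Kcnk9 second: atctttaagaatcatGCACTTTgtggaact
Kcnk9 last: gcattgtaaactatcGCACTTTtctatttt
Kcnq3: atgttacattaggatGCACTTTttaaaata
Kcnma1: ttccttctacaagttGCACTTTgtttttgt
Kcnj2 first: ttttttttttcttttTTTGCACatggaggt
Kcnj2 second: agcagtccgttcattTTTGCACtatagtct

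**Figure D5:**
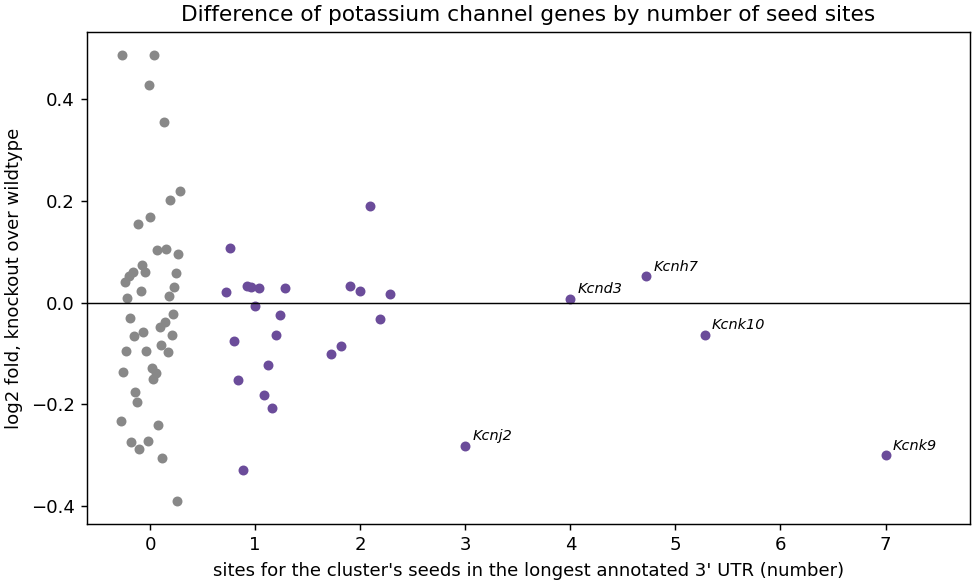
Log2 fold of knockout over wildtype of 72 tested genes against the number of matches to the 4 seeds in the longest annotated 3' UTR (grey none, purple 1 or more; points of 1 count are spread sideways by name). Genes with 3 or more matches are named, and their folds run from -0.30 (Kcnk9, 7 matches) to 0.052 (Kcnh7, 5 matches).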

How the data were processed

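Hippocampal RNA of 3 wildtype and 3 knockout mice was sequenced. The authors deposited raw counts, as 1 table for each mouse. The submitters' processing notes name FastQC 0.10.1, STAR 2.3.0e, SAMtools, HTSeq, DESeq2 and build mm9. The gene annotation, the setting for strand and what each tool did are not given in the sources used for this work. A gene and its antisense partner may therefore share reads that cannot be separated. Per table, the entries that name no gene (5 of them) held 38.0% to 40.3% of the total and were left out. GENCODE M21 (GRCm38) supplied names, lengths, GC content and 3' UTRs, and 32897 of 37620 identifiers matched. Libraries of 1 genotype differed by more than sampling noise, with a chi-square per gene of 6.40 to 12.1. A limit from 0 reads reflects counting error alone.

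The test was edgeR 4.0.16 (R 4.3.3) quasi-likelihood on genotype, with filterByExpr, TMM and Benjamini-Hochberg adjustment at 0.05 over 16432 genes, and 75 of 89 potassium channel genes passed the filter. CPM use TMM library sizes, and the SE is the absolute log2 fold over the square root of F. Also tried were DESeq2 1.42.0, limma-voom (limma 3.58.1), edgeR's robust fit, other size factors and filters, a replicate block, offsets for GC content and length (splines, 5 degrees of freedom), thinning to the smallest library, the depth set (more or fewer gene reads than the median library, chosen after seeing the data), an adjusted p of 0.10 and leaving out each library. Scripts were tested on simulated data. Members and lists were chosen with earlier results of these data known. Named were, in each subfamily, the gene of highest level per length and the gene of smallest p, the 10 of smallest p in each direction, and the 4 partners of smallest p. Values by gene of 3 tested members are not reported here, though counts and medians over members include them. Others are said to be named after their values were seen.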

Additional observations from a re-analysis of the deposited data

How the results depend on the processing

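No potassium channel gene was called in any of the settings run. Over all genes the count of calls was 0 as reported, 62 with no filter beyond 1 read, 163 with DESeq2, 15 with the robust fit, 1 after thinning, 18 at an adjusted p under 0.10, and 0 to 17 on leaving out 1 library (17 without knockout replicate 3, 16 if wildtype replicate 2 was dropped, 2 for wildtype replicate 1 or knockout replicate 1). Channel genes with an unadjusted p under 0.05 numbered 11 to 17 in all settings. The share of all genes with such a p was 10.6% as reported, 8.33% with DESeq2, 10.8% with limma-voom and 7.14% with the offsets. It is not given here for the other settings, so counts of channel genes and partners there have no background beside them. For the channel genes tested, the median log2 fold of -0.030 was -0.0036 with the offsets for GC content and length. On leaving out 1 library that median ran from -0.065 (wildtype replicate 1 dropped) to -0.0032 (wildtype replicate 2 dropped). Partners with such a p numbered 2 to 5 in all settings, with 5 in DESeq2 and with no filter beyond 1 read. On leaving out 1 library they numbered 2 (knockout replicate 2 dropped) to 4. Of 544 log2 folds for the 32 named genes 12 reversed, in 6 genes whose folds lay near 0. On leaving out 1 library Kcna1 ran from -0.0043 to 0.040, Kcnd2 from -0.022 to 0.11, Kcng1 from -0.099 to 0.038, Kcns2 from -0.079 to 0.080, Kcnt2 from -0.010 to 0.076 and Kcnu1 from -0.027 to 0.20. With the offsets Kcng1 was 0.036 and Kcnt2 -0.077. With the depth set, a covariate chosen after seeing the data, Kcns2 was -0.013. The cause was not tested. Since no litter is shared, the replicate numbers name animals and pair none: libraries of equal number had correlated deviations of -0.11, -0.02 and -0.17, and in 0 of 3 was that the closest match. With the replicate block 0 genes were called and 14 channel genes had an unadjusted p under 0.05 (5 positive, 9 negative), with a median log2 fold of -0.022. At this depth genes under 1 CPM, such as Kcnj5 and Kcnk5, have wide errors.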

Other observations

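Ratios between subunits that share a complex or a family were computed after the values of their genes were seen, so they are descriptions without a test. Per length, Kcnj3 over Kcnj6 was 3.72 ± 0.31 in wildtype and 4.62 ± 0.11 in knockout, and Kcnj3 over Kcnj9 was 1.35 ± 0.073 and 1.67 ± 0.099 (SD, n = 3). Kcnk1 over Kcnk9 was 18.6 ± 0.17 and 25.1 ± 3.8, and Kcnab1 over Kcnab2 was 0.159 ± 0.019 and 0.187 ± 0.0086. In these 4 ratios all knockout mice lay above all wildtype mice. Each pair set a gene with a positive log2 fold over a gene with a negative one, so a rise was built into the choice. For Kcnj3 over Kcnj6 the separation followed from that of the genes themselves.

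Across the 75 tested genes, wildtype replicate 2 held the highest value of the 6 libraries in 20 genes and knockout replicate 3 the lowest in 15. The median deviation of a library from the gene's mean over libraries lay between -0.02 (knockout replicate 3) and 0.05 (wildtype replicate 2) on the log2 scale.

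Immediate early genes induced by neuronal activity summed to 856 to 1013 CPM in wildtype and 667 to 684 CPM in knockout, with 6 of 6 at an unadjusted p under 0.05 and a negative fold. The relation of this to the channel genes was not tested.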
